A study of Homo sapiens with 6 samples.

Results

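Fatty acid desaturases and elongases are the 10 genes SCD, SCD5, FADS1, FADS2, FADS3, ELOVL1, ELOVL4, ELOVL5, ELOVL6 and ELOVL7, chosen by symbol from these 3 families. Of 63140 genes in the files, 14451 had enough reads to be tested, and all 10 were among them. They were measured by RNA-seq in 6 libraries of BT-549 cells, an established triple negative breast cancer line, recorded as wild type and epithelial by the labels. BT-549 cells spent 24 h either in adipocyte-conditioned media (ACM, 3 libraries) or in unconditioned medium (UCM, 3 libraries), and no transgene was present in either group. ACM was a medium with oleate, insulin and albumin that had been left on OP9 cells, a mouse stromal line, while these turned into adipocytes. The labels give 50% ACM for these cultures whereas the supplement describes it as undiluted, and the formula of UCM is not stated. Oleate, insulin, serum and base medium may therefore have differed between the groups together with the secretions of the adipocytes, and these cannot be told apart. The sources name 3 replicates per condition in a multiwell plate and do not say whether they were separate cultures, so p-values measure the spread between these libraries, which may be technical.

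Saturated chains leave fatty acid synthase as palmitate, and the desaturases and elongases of the endoplasmic reticulum decide what becomes of them. SCD and SCD5 put a first double bond into stearate and palmitate and so make oleate and palmitoleate. FADS2 and FADS1 add further double bonds to the essential fatty acids on the way to arachidonate and the long omega fatty acids, and FADS3 works on sphingoid bases. Elongases add carbons to the carboxyl end of the chain. ELOVL6 takes palmitate to stearate, ELOVL5 and its relative ELOVL2 act on polyunsaturated chains, ELOVL1 and ELOVL7 on saturated and monounsaturated chains, and ELOVL4 makes the very longest. SCD, FADS1, FADS2 and ELOVL6 are textbook targets of the SREBP transcription factors, and unsaturated fatty acids are known to lower SREBP-1 activity.

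Total expected counts ranged from 17135288 to 21053257 per library, and mitochondrial transcripts took 2.12 to 3.84% of them. Replicate 1 of each condition had the highest mitochondrial share, 3.84% in ACM and 3.52% in UCM, of its group. Chi-square per gene was 20.2 and 21.82 between UCM replicate 1 and the other UCM libraries, against 2.32 between replicates 2 and 3, and 13.49 to 19.15 between the ACM libraries. The line's mesenchymal markers VIM, FN1, CDH2, ZEB1 and SPARC summed to 4344 to 5127 TPM in each library, most of it VIM and SPARC. ZEB1, the lowest of them, had 15.9 to 27.5 TPM. All 7 epithelial markers stayed under 1 TPM in every library, against the label. ESR1 and PGR, the hormone receptors absent from triple negative cells, were at 0 counts, and the receptor gene ERBB2, also low in such tumours, was present at 25.4 to 32.4 TPM. Of 10 adipocyte markers, 9 were under 1 TPM in every library, and ADIPOQ, CIDEC, CIDEA, LEP and RETN were at 0. Their summed level was 4.10 to 6.55 TPM in ACM and 3.39 to 4.09 in UCM, nearly all of it CFD.

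Sequence upstream of the start is shown for the 3 genes whose transcripts differed between the media, SCD, FADS2 and ELOVL6, and for 2 relatives, SCD5 and FADS1, that did not pass the test. Windows of 300 bases, from 250 before to 50 after the canonical start, were searched on both strands for the sterol response element core TCACNCCAC, the NF-Y box CCAAT and the GC box GGGCGG. Capitals mark the NF-Y and GC boxes in either orientation. Annotated untranslated sequence is left out, which shortens the windows of FADS2, FADS1 and ELOVL6. The starts come from GENCODE 44, the bases from GRCh38, and those of SCD, SCD5, FADS1 and ELOVL6 are the same in the RefSeq promoter table (GRCh38.p14).
SCD, chr10:100346983-100347232, plus strand: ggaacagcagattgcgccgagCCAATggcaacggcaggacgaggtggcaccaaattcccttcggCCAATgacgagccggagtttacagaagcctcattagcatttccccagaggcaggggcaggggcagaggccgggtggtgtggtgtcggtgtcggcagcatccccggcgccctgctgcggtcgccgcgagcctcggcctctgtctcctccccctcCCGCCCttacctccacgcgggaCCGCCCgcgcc
SCD5, chr4:82798797-82799046, minus strand: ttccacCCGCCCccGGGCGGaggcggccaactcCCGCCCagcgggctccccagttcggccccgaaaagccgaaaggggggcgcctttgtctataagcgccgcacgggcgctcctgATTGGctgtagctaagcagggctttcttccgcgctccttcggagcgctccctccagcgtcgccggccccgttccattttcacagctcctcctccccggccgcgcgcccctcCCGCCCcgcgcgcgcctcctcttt
FADS2, chr11:61828050-61828178, plus strand: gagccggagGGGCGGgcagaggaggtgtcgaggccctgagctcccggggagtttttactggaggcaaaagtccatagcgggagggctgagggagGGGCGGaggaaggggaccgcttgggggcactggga
FADS1, chr11:61817198-61817253, minus strand: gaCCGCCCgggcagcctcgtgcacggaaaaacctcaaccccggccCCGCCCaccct
ELOVL6, chr4:110198654-110198841, minus strand: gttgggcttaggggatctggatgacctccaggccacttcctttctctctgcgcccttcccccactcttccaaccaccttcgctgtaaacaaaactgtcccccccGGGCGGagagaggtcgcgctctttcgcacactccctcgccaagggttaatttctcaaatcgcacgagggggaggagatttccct
In these windows SCD held 2 NF-Y boxes, 229 and 186 bases before its start, and 2 GC boxes. SCD5 held 1 NF-Y box and 4 GC boxes, ELOVL6 1 GC box and no NF-Y box, and FADS2 and FADS1 2 GC boxes each and no NF-Y box. For the sterol response element only the letters of its core were searched, so other forms of the element could have been missed. That core was in none of the 10 windows. Over 35116 RefSeq promoters of the same length, 1.1% held that core, 34.6% an NF-Y box and 45.0% a GC box. All 10 genes matched a RefSeq promoter, but both RefSeq starts of FADS2 lie 11896 and 12097 bases before the canonical one used here. The FADS2 result depended on the start. The window of the nearer RefSeq start held 1 NF-Y box and 1 GC box, and that of the farther one held 0 of each.

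In ACM the SCD and FADS2 transcripts fell and the ELOVL6 transcript rose, while the other 7 genes did not pass the test. Among the 10 genes, 1 was called higher and 2 lower at an adjusted p of 0.05 or less (edgeR, adjusted over all tested genes). Over all 14451 tested genes, 5.56% were called, 3.35% higher and 2.21% lower. The median log2 fold change of the 10 genes was -0.18, beside -0.01 for all tested genes. In 5 of the 10 genes the ACM and UCM libraries did not overlap, 1 with ACM above (ELOVL6) and 4 with ACM below (SCD, FADS2, ELOVL4 and ELOVL5), and 29.0% of all tested genes had groups that did not overlap. Without replicate 1 of both conditions, an alternative chosen after seeing the data, SCD (-1.23, adjusted p = 2.01e-04), FADS2 (-0.91, adjusted p = 8.35e-05) and ELOVL6 (0.82, adjusted p = 9.17e-04) were called in the same direction. In these bulk samples, fewer cells of one kind and less RNA per cell cannot be told apart.

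**Figure D1:**
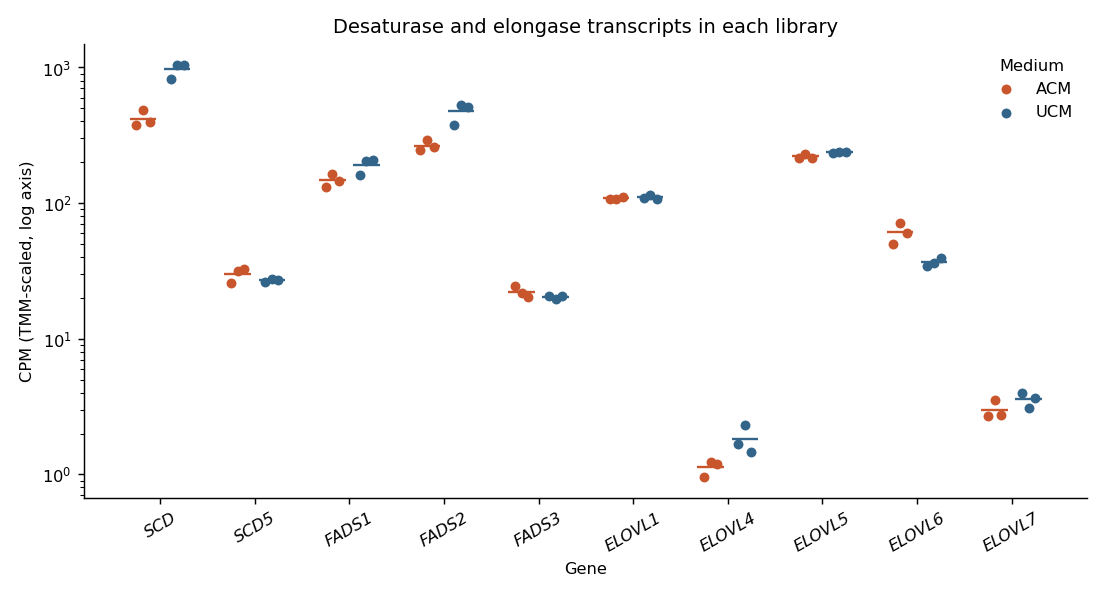
Reads scaled by library size (CPM, log axis) of the 10 genes in each library; points are libraries, bars are group means, orange is ACM and blue is UCM. SCD and FADS2 points of ACM all lie below those of UCM, and ELOVL6 points of ACM lie above, between 50.1 and 71.5 against 34.4 to 39.4 CPM.

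SCD, the main enzyme that makes oleate in human cells, lies on chromosome 10 (100347233 to 100364826, plus strand, GRCh38) and has a single annotated transcript of 6 exons. Its level was 377.5, 487.2 and 394.3 CPM (reads scaled by library size) in ACM and 819.5, 1036.4 and 1049.9 CPM in UCM. Every ACM library was below every UCM library, and replicate 1 was the lowest of each group. The fold change was 2.31-fold lower in ACM, a log2 fold change of -1.21 (SE 0.13, 95% interval -1.49 to -0.92, adjusted p = 0.0023), and SCD ranked 32 by p among all tested genes. The annotated pseudogene copy SCDP1 had 0 counts in all 6 libraries. SCD stayed called in all 16 alternative analyses, with log2 fold changes from -1.33 to -1.13.

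SCD5, the second human stearoyl-CoA desaturase, on chromosome 4, is carried by 2 annotated transcripts. Its CPM was 25.9, 31.7 and 32.4 in ACM and 26.4, 27.6 and 27.2 in UCM. These groups overlapped, since replicate 1 of ACM lay below all UCM libraries while replicates 2 and 3 lay above them. The log2 fold change was 0.15 (95% interval -0.08 to 0.38, adjusted p = 0.4348), an interval that does not meet that of SCD. Per length, SCD made up 88.5% ± 1.21 (SD, n = 3) of the summed TPM of SCD and SCD5 in ACM and 95.1% ± 0.551 (SD, n = 3) in UCM. TPM, a gene's share of all transcripts, divides reads by transcript length and can be set side by side between genes.

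FADS2, the enzyme of the first desaturation step of linoleate, lies on chromosome 11 (61792980 to 61867354, plus strand). Its CPM was 245.8, 290.8 and 258.3 in ACM and 378.6, 528.3 and 514.6 in UCM. All ACM libraries were lower than all UCM libraries, with UCM replicate 1 the nearest to them. FADS2 was 1.79-fold lower in ACM (log2 fold change -0.84, SE 0.13, 95% interval -1.13 to -0.54, adjusted p = 0.0119). It was called in all 16 alternatives, from -0.97 to -0.75.

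FADS1, which acts after FADS2 on the same chains, is read from the opposite strand of the same locus (61799627 to 61829318). Its CPM was 130.8, 164.3 and 146.0 in ACM and 162.1, 203.8 and 206.2 in UCM. ACM replicate 2 lay just above UCM replicate 1, so the groups overlapped. The log2 fold change was -0.38 (SE 0.11, 95% interval -0.63 to -0.12), and it did not pass the test over all genes (unadjusted p = 0.0083, adjusted p = 0.0870). Without UCM replicate 1 it was -0.47 with an adjusted p of 0.0113, and without replicate 1 of both conditions it was -0.39 with an adjusted p of 0.0079. The ratio of FADS2 to FADS1 in TPM was 2.18 to 2.67 in ACM and 3.18 to 3.61 in UCM, with no overlap.

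The spans of FADS1 and FADS2 overlap by 29692 bases. Their exons share 490 bases over all annotated transcripts and 0 bases between the canonical ones, and FADS2 shares 49 exonic bases with FEN1. Whether the libraries keep strand is not given in the sources used here, so reads in those shared bases could have been split between the genes. FADS3, the family member next to FADS2, had 24.5, 21.9 and 20.4 CPM in ACM and 20.8, 19.6 and 20.8 CPM in UCM. The groups overlapped, with a log2 fold change of 0.13 (95% interval -0.10 to 0.36, adjusted p = 0.5046).

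Of 8 further genes around FADS1, FADS2 and FADS3, 7 were tested and 0 were called by edgeR, with 1 at an unadjusted p under 0.05. That gene was FTH1, the ferritin heavy chain, at 3189 to 4351 CPM in ACM and 2677 to 2992 CPM in UCM (log2 fold change 0.37, 95% interval 0.12 to 0.61, adjusted p = 0.0864). RAB3IL1 had -0.20 (adjusted p = 0.2216) and BEST1 0.49 (adjusted p = 0.3613). FEN1, the flap endonuclease whose span overlaps that of FADS2, had a log2 fold change of -0.13 (95% interval -0.32 to 0.06, adjusted p = 0.3932). FTH1 was called higher in 5 of the alternatives, among them without ACM replicate 1 (0.47, adjusted p = 0.0377). An unadjusted p under 0.05 was common, as the edgeR p of 0.0428 of CFD ranked 3145 among all 14451 tested genes. A count of 1 at this cut, here or in the lists below, does not set a list apart.

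**Figure D2:**
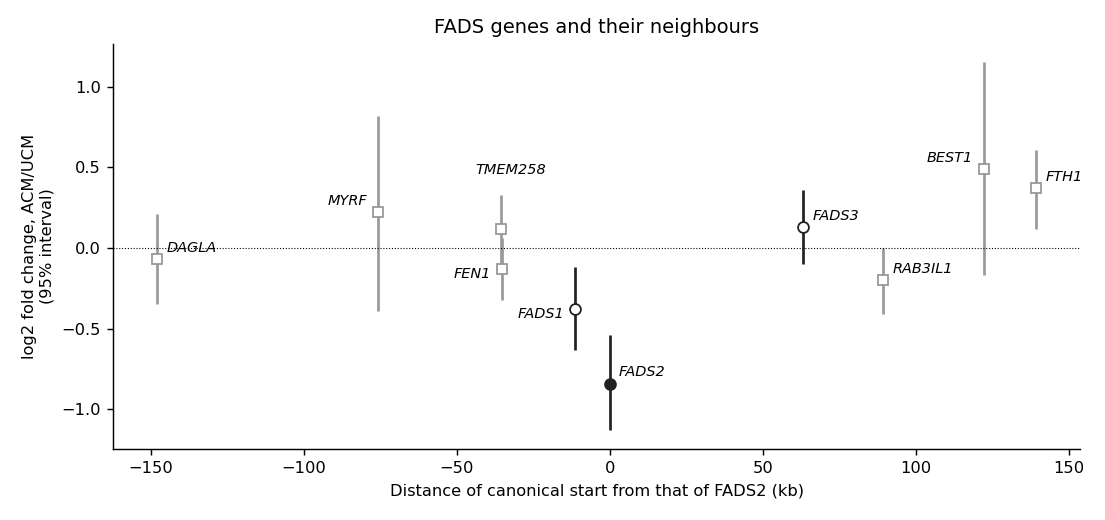
Log2 fold change in ACM relative to UCM (y axis, bars are 95% intervals) against the distance of each canonical start from that of FADS2 in kb (x axis); circles are FADS genes, squares are neighbours, and a filled symbol passed the test. FADS2 at -0.84 is the lowest point and the one filled symbol, with FADS1 at -0.38 placed 11.3 kb before it and FADS3 at 0.13 placed 63.2 kb after it.

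ELOVL6, the elongase that turns palmitate into the stearate on which SCD acts, lies on chromosome 4 (110045846 to 110199199, minus strand) and has 8 annotated transcripts. Its CPM was 50.1, 71.5 and 60.7 in ACM and 34.4, 36.2 and 39.4 in UCM. Every ACM library was above every UCM library. ELOVL6 was 1.66-fold higher in ACM (log2 fold change 0.73, SE 0.12, 95% interval 0.45 to 1.00, adjusted p = 0.0126). It kept this call in 15 of 16 alternatives, and without UCM replicate 2 the value was 0.72 with an adjusted p of 0.0668.

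The effective length that the authors deposited for ELOVL6, a mean over its transcripts weighted by their abundance, was 2102, 5414 and 3823 bases in ACM and 4484, 5283 and 4881 bases in UCM. ACM replicate 1 was the shortest, and the groups overlapped. The difference in log2 effective length was -0.47 (SE 0.37, limma adjusted p = 0.9930). TPM, which divides by that length, was 33.7, 18.3 and 22.9 in ACM and 11.1, 9.68 and 11.6 in UCM, so that the order of the ACM libraries was the reverse of their order in CPM. With effective lengths as offsets the log2 fold change was 1.23 (adjusted p = 0.0196). No member had a called difference in effective length (0 of 10 in limma, and 0 at an unadjusted p under 0.05), where 0.0138% of 14450 genes did.

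**Figure D3:**
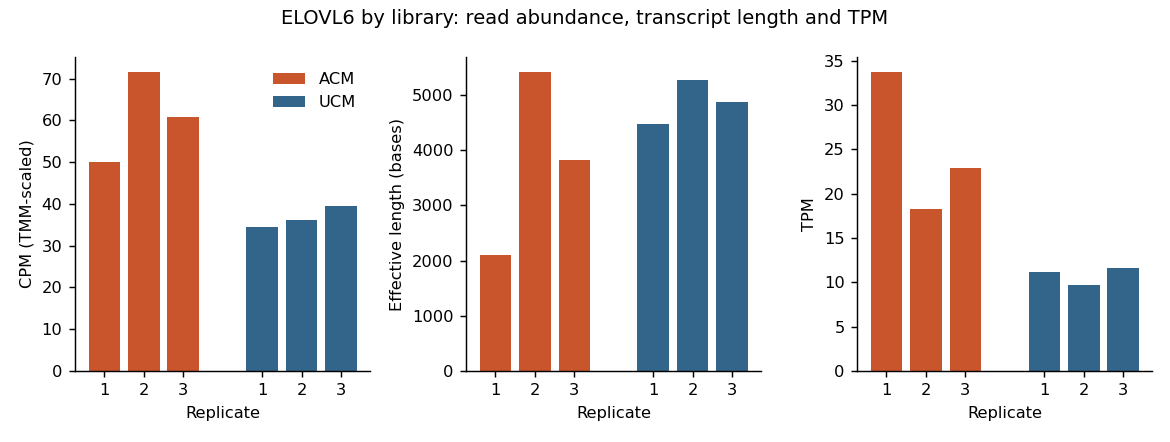
ELOVL6 in each library as CPM (left), effective length in bases (middle) and TPM (right); bars are single libraries, orange is ACM and blue is UCM, numbered by replicate. CPM and TPM are higher in every ACM library, and ACM replicate 1, with a length of 2102 bases, has the lowest CPM and the highest TPM of its group.

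The elongases other than ELOVL6 did not pass the test. ELOVL1 had 107.6, 106.6 and 110.4 CPM in ACM and 109.4, 114.9 and 107.1 CPM in UCM, with a log2 fold change of -0.03 and the narrow interval of -0.17 to 0.11 (adjusted p = 0.8307). ELOVL5 had 216.9, 231.1 and 216.3 CPM in ACM and 233.8, 238.4 and 238.1 CPM in UCM. Its groups did not overlap, but the distance was small, -0.10 on the log2 scale (95% interval -0.23 to 0.04, adjusted p = 0.3860). Neither interval reaches that of ELOVL6.

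ELOVL4 and ELOVL7 had the fewest reads of the 10 genes. ELOVL4 was counted 20, 22 and 22 times in the ACM libraries, against 35, 43 and 25 in UCM. All ACM libraries were below all UCM libraries, but the log2 fold change of -0.68 came with an interval from -1.42 to 0.05 (adjusted p = 0.2492). ELOVL7 was counted 57, 63 and 50 times in the ACM libraries, against 84, 57 and 63 in UCM, which overlapped (log2 fold change -0.26, 95% interval -0.77 to 0.25, adjusted p = 0.5503). The interval of ELOVL4 holds both 0 and a fall as large as that of FADS2.

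Family genes outside the 10 were measured as well. ELOVL2 had 17.1, 23.2 and 22.8 CPM in ACM and 16.3, 20.9 and 22.9 CPM in UCM (log2 fold change 0.07, 95% interval -0.28 to 0.42, adjusted p = 0.8347). DEGS1, the desaturase that makes ceramide from dihydroceramide, had 101.9 to 107.8 CPM in ACM and 110.2 to 118.4 CPM in UCM (log2 fold change -0.13, 95% interval -0.27 to 0.02, adjusted p = 0.2805). ELOVL3, FADS6 and DEGS2 had too few reads to be tested, at most 9 counts in any library for ELOVL3.

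**Figure D4:**
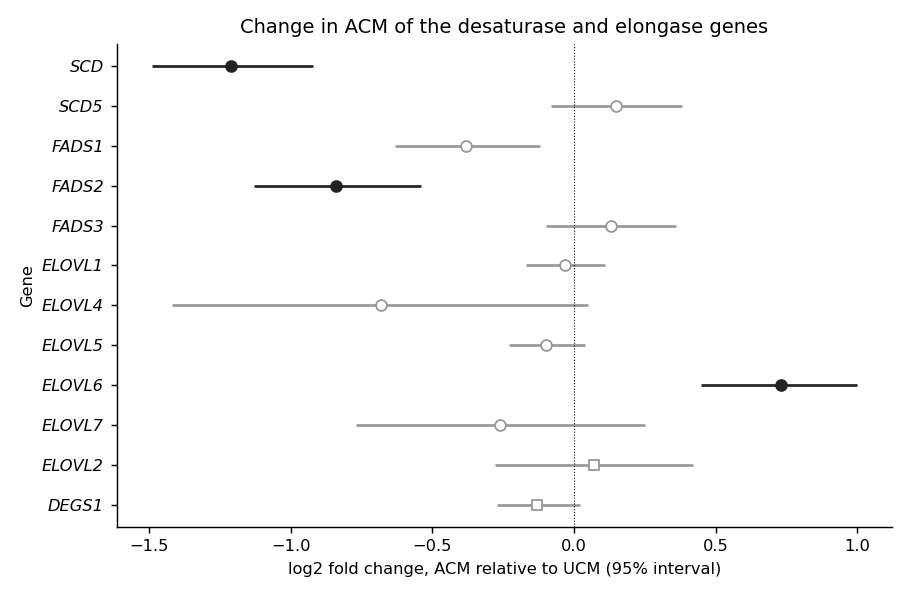
Log2 fold change in ACM relative to UCM (x axis) of each gene, with 95% intervals; circles are the 10 genes, squares are ELOVL2 and DEGS1, and filled symbols passed the test at an adjusted p of 0.05 or less. SCD (-1.21) and FADS2 (-0.84) lie to the left and ELOVL6 (0.73) to the right, and all other symbols are open.

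Levels per length ordered the family differently in ACM and UCM. In UCM the order in TPM was SCD (279.1 ± 34.4, SD, n = 3), FADS2 (261.6 ± 44.9), ELOVL5 (148.7 ± 2.67), ELOVL1 (145.5 ± 1.06), FADS1 (75.7 ± 8.42), FADS3 (17.1 ± 1.28), SCD5 (14.2 ± 0.175), ELOVL6 (10.8 ± 0.993), ELOVL7 (2.20 ± 0.880) and ELOVL4 (0.943 ± 0.222). Only SCD and FADS2 overlapped among neighbours of that order. In ACM FADS2 led with 144.2 ± 8.59 TPM (SD, n = 3), followed by ELOVL1 (137.3 ± 8.80), ELOVL5 (137.2 ± 1.80) and SCD (119.4 ± 14.7), each overlapping the next of these. FADS1 (60.2 ± 7.45), ELOVL6 (25.0 ± 7.92), FADS3 (19.4 ± 1.48), SCD5 (15.5 ± 1.84), ELOVL7 (1.37 ± 0.243) and ELOVL4 (0.583 ± 0.0808) came after them, with ELOVL6 and FADS3 overlapping. ELOVL6 thus moved up by 2 places and SCD down by 3.

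Summed over the 5 desaturases, the level was 329.9, 390.8 and 355.2 TPM in ACM and 546.5, 695.2 and 701.0 TPM in UCM. Summed over the 5 elongases it was 306.3, 290.8 and 307.3 TPM in ACM and 309.7, 305.7 and 309.0 TPM in UCM. The desaturase sums did not overlap between the media, and those of the elongases did. Most of the desaturase sum was SCD and FADS2, and most of the elongase sum was ELOVL5 and ELOVL1. The sums therefore mainly follow these genes and not each family as a whole. SCD stood at 3.19 to 7.43 times the TPM of ELOVL6 in ACM and at 21.5 to 30.4 times in UCM. The lowest of these, 3.19, belongs to ACM replicate 1, where the effective length of ELOVL6 was 2102 bases. In CPM, which is not divided by length, the ratio within a library was 6.50 to 7.54 in ACM and 23.8 to 28.6 in UCM.

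Desaturation draws electrons from cytochrome b5 and its reductases. Of 6 genes of this kind 5 were tested, and 2 were called lower and 0 higher in ACM. Over all tested genes 2.21% were called lower and 3.35% higher. CYB5B, the cytochrome b5 of the outer mitochondrial membrane, had 109.2 to 121.0 CPM in ACM and 149.0 to 171.5 CPM in UCM (log2 fold change -0.48, SE 0.08, adjusted p = 0.0075). CYB5R4, a reductase with its own cytochrome b5 domain, had 32.6 to 33.6 CPM in ACM and 41.2 to 42.3 CPM in UCM (log2 fold change -0.33, SE 0.08, adjusted p = 0.0339). Leaving out any one library except UCM replicate 1 ended the call of CYB5R4, with adjusted p values of 0.0595 (ACM replicate 1), 0.1073 (ACM replicate 2), 0.0768 (ACM replicate 3), 0.1582 (UCM replicate 2) and 0.1444 (UCM replicate 3). CYB5R3, the reductase of the endoplasmic reticulum, had a log2 fold change of 0.14 (adjusted p = 0.3744).

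The elongases catalyse the first step of a cycle that a reductase, a dehydratase and a second reductase complete. Of 7 genes for these later steps 6 were tested and 0 were called by edgeR, with 1 at an unadjusted p under 0.05. That was HACD4, a dehydratase of the family, at 9.60 to 11.8 CPM in ACM and 6.41 to 8.05 CPM in UCM (log2 fold change 0.53, 95% interval 0.19 to 0.87, adjusted p = 0.0708). HACD1 had -0.10 (adjusted p = 0.4646) and HACD3 -0.04 (adjusted p = 0.7346). HACD4 was called in 4 of 16 alternatives. Its adjusted p was 0.0466 without UCM replicate 1 and 0.2389 without ACM replicate 2.

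Upstream of the elongases, palmitate is made from acetyl-CoA. Of 7 genes 6 were tested, and 2 were called lower and 0 higher, where 2.21% of all tested genes were called lower. ACSS2, which makes acetyl-CoA from acetate, had 11.2 to 13.0 CPM in ACM and 20.2 to 29.4 CPM in UCM (log2 fold change -1.09, SE 0.15, adjusted p = 0.0038). On TPM, which divides by an effective length that differs between libraries, ACSS2 did not pass (log2 fold change -0.53 with 1 added, limma adjusted p = 0.2925), nor with effective lengths as offsets (-0.48, adjusted p = 0.3975). ACLY, which makes it from citrate, had 266.6 to 283.8 CPM in ACM and 349.3 to 400.3 CPM in UCM (log2 fold change -0.47, SE 0.07, adjusted p = 0.0068). ME1, a source of NADPH, had -0.33 and did not pass (adjusted p = 0.1585). It was called in 2 of 16 alternatives, among them without UCM replicate 1 (-0.43, adjusted p = 0.0410). FASN, fatty acid synthase itself, had 527.3 to 575.0 CPM in ACM and 610.4 to 625.4 CPM in UCM (log2 fold change -0.16, adjusted p = 0.1606).

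Of 15 regulators of the family 14 were tested, and 2 were called lower and 0 higher. The share called lower over all tested genes was 2.21%. Among the 14, 10 had a log2 fold change above 0 and 4 below, with a median of 0.12 beside -0.01 for all tested genes. INSIG1, which holds the SREBP precursors in the endoplasmic reticulum and is itself an SREBP target, had 30.2 to 40.0 CPM in ACM and 95.9 to 141.5 CPM in UCM. SREBF2, the gene of SREBP-2, had 140.9 to 167.6 CPM in ACM and 216.3 to 236.0 CPM in UCM (log2 fold change -0.61, SE 0.08, adjusted p = 0.0038). SREBF1, the gene of SREBP-1, pointed the other way without passing, at 177.7 to 192.0 CPM in ACM and 150.6 to 163.0 CPM in UCM (log2 fold change 0.24, 95% interval 0.10 to 0.39, adjusted p = 0.0583). Its groups did not overlap in CPM. In TPM they did, at 87.5 to 92.5 in ACM and 68.0 to 93.5 in UCM. SREBF1 was called in 6 of 16 alternatives. Its adjusted p was 0.0275 without UCM replicate 1 and 0.2482 without UCM replicate 2. On log2(TPM + 1) it had a log2 fold change of 0.18 (limma adjusted p = 0.4113).

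Enzymes that take up the products were measured in 13 of 16 cases and 0 were called by edgeR, with 6 at an unadjusted p under 0.05. Among all 14451 tested genes, the edgeR p of 0.0428 of CFD ranked 3145. Whether this list held more genes under that cut than other genes do was not tested. MBOAT7, which places arachidonate into phosphatidylinositol, had the lowest p, with 239.4 to 278.1 CPM in ACM and 197.2 to 216.4 CPM in UCM (log2 fold change 0.29, 95% interval 0.12 to 0.46, adjusted p = 0.0546). It was called in 6 alternatives, with DESeq2 at an adjusted p of 0.0146. The acyl-CoA synthetases ACSL4 and ACSL1 had -0.23 (adjusted p = 0.1065) and -0.25 (adjusted p = 0.1195). Of 7 genes for the peroxisomal shortening and transport of very long chains 6 were tested and 0 were called by edgeR, with 1 at an unadjusted p under 0.05. HSD17B4 and ACAA1, enzymes of the shortening itself, had 0.15 (adjusted p = 0.2435) and -0.17 (adjusted p = 0.3390).

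**Figure D5:**
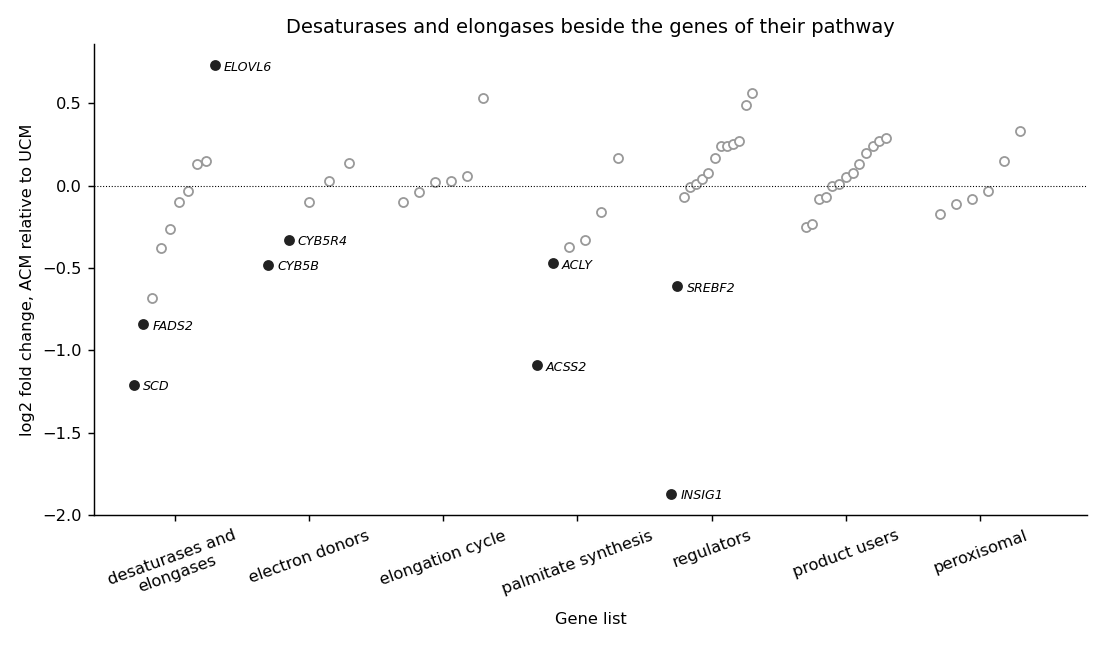
Log2 fold change in ACM relative to UCM (y axis) of each tested gene, by list (x axis); filled and named points passed the test at an adjusted p of 0.05 or less, open points did not. The called points of the pathway lists all lie below 0, from CYB5R4 at -0.33 to INSIG1 at -1.87, and ELOVL6 at 0.73 is the one called point above 0.

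The tested genes whose pattern over the 6 libraries was most like that of SCD, by Pearson correlation of log2 CPM, were TERF1 (r = 0.9972), INSIG1 (r = 0.9968), C3orf14 (r = 0.9958), UBQLN1 (r = 0.9951) and SREBF2 (r = 0.9945). This is a description over 6 points that share the 2 media and their libraries. Their sizes of change differed widely, from -0.11 for UBQLN1 (adjusted p = 0.3005) to -1.87 for INSIG1 (adjusted p = 0.0030). Within the family, FADS2 followed SCD most closely (r = 0.99) and ELOVL6 ran against it (r = -0.80).

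Among the markers of other cell types, CD68 was called and CFD lay apart between the groups without passing the test. CFD, an adipocyte marker, had 2.38, 2.08 and 2.99 CPM in ACM and 1.42, 1.34 and 1.92 CPM in UCM (log2 fold change 0.67, 95% interval 0.03 to 1.31, adjusted p = 0.1965). CD68, a lysosomal protein abundant in macrophages, had 12.1, 30.5 and 21.4 TPM in ACM and 7.96, 5.51 and 5.61 TPM in UCM (log2 fold change 1.76, adjusted p = 0.0335). It was the one called gene of 4 macrophage markers, and CD163, CSF1R and PTPRC stayed under 1 TPM in every library. The call of CD68 was lost without UCM replicate 1 (adjusted p = 0.0772), replicate 2 (0.1602) or replicate 3 (0.1523). The summed level of the 4 was 12.8 to 30.8 TPM in ACM and 5.69 to 8.47 TPM in UCM. The part of CD68 and CFD in the values of SCD, FADS2 and ELOVL6 was not tested.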

How the data were processed

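RNA from BT-549 cells was sequenced as 6 polyA-enriched, paired-end libraries, 3 from ACM and 3 from UCM. Per the labels and the paper's methods, Trim Galore, STAR (genome GRCh38) and RSEM were used for trimming, alignment and quantification, and the authors deposited 1 table per library. Tool versions and the gene annotation are not given in the sources used here. The expected counts that the authors deposited share ambiguous reads between genes and are not scaled for library size. The TPM values that the authors deposited divide by an effective length, in bases, that RSEM set for each gene in each library and scale to the library's sum. A deposited table of the authors' own comparison (DESeq2 fold changes and p-values) was not used.

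After rounding, the expected counts were fitted in R 4.3.3 with edgeR 4.0.16 (TMM, filterByExpr, robust quasi-likelihood, condition as the only term), with Benjamini-Hochberg adjustment over the 14451 genes tested, and genes were called at an adjusted p of 0.05 or less. The common coefficient of biological variation was 0.115 and total expected counts were 17135288 to 21053257 per library, and p-values cover the spread of 3 libraries per group. CPM values are TMM-scaled. Effective lengths were compared as log2 values with limma 3.58.1 (limma-trend) over 14450 genes. Identifiers and versions of 61547 of 63140 genes matched GENCODE 44, which gave symbols and positions. The fit was tested on simulated data first.

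The members and lists were chosen with earlier results of these data known. From each list the text names every called gene and, where fewer than 3 were called, those with the lowest p until 3 were named, and it names the 5 genes most correlated with SCD. One gene that this rule selects is not reported here. Alternatives were DESeq2 1.42.0, size factors by RLE, a looser filter (1 count summed over libraries), a stricter one (10 counts in each), limma-trend of log2(TPM + 1) and log2(TPM + 0.1), effective lengths as offsets, a replicate block, each library left out in turn and pseudogene copies added to their parent gene. Leaving out replicate 1 of both conditions was added after seeing the data.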

Additional observations from a re-analysis of the deposited data

How the results depend on the processing

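Of the 10 desaturases and elongases, 8 kept their direction and their side of the threshold in all 16 alternatives, and none changed direction. SCD and FADS2 were called in each of them. FADS1 passed the threshold in 5, with a log2 fold change of -0.37 under DESeq2 (adjusted p = 0.0251), with a filter of at least 1 count in total (adjusted p = 2.18e-04) and with a replicate block (adjusted p = 0.0046), -0.39 without replicate 1 of both conditions, and -0.47 without UCM replicate 1. Over all 6 single libraries left out it lay between -0.47 and -0.29, and it passed without UCM replicate 1 alone. ELOVL6 lay between 0.59 and 0.86 when single libraries were left out, and the number of members called higher was 0 without UCM replicate 2 and 1 without any other. The cause was not tested.

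Calls over all genes depended more on the setting. Against 484 higher and 320 lower, a filter of at least 1 count in total gave 1045 and 679, log2(TPM + 1) 210 and 121, log2(TPM + 0.1) 221 and 128, effective lengths as offsets 272 and 134, the replicate block 909 and 703, and leaving out replicate 1 of both conditions 1017 and 726. Single libraries left out gave 125 to 738 higher and 62 to 572 lower, with fewest higher without UCM replicate 2 and fewest lower without UCM replicate 3. DESeq2 gave 725 higher and 422 lower.

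In the lists, 1 electron donor was lower in place of 2 with either TPM setting and with effective lengths as offsets, and 1 to 2 when single libraries were left out. With the same 3 settings 1 gene of palmitate synthesis was lower in place of 2. Against 0 called higher in each list, a filter of at least 1 count gave 1 gene of the elongation cycle, 2 regulators, 1 product user, 1 peroxisomal gene and 1 FADS neighbour, and the replicate block gave 1, 3, 1, 1 and 1. DESeq2 gave 1 regulator, 1 product user and 1 neighbour, RLE size factors 1 product user, and a filter of at least 10 counts in every library 1 regulator and 1 product user. Leaving out replicate 1 of both conditions gave 1 gene of the elongation cycle, 1 of palmitate synthesis, 2 regulators, 1 product user and 1 neighbour higher, and 1 peroxisomal gene lower. Leaving out single libraries gave 0 to 1 gene of the elongation cycle, 0 to 1 of palmitate synthesis, 0 to 2 regulators and 0 to 1 neighbour. Taken from CPM in place of TPM, the share of SCD in SCD and SCD5 was 93.3% in ACM and 97.3% in UCM.

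With the replicate block CD68 was not called (1.68, adjusted p = 0.0763). Same-numbered ACM and UCM libraries deviated together with correlations of 0.359, 0.036 and 0.228. The 0.359 of the replicates numbered 1 was the highest of all pairs, and ACM replicate 3 correlated about as well with UCM replicate 2 (0.244). Deviations from means of 3 libraries are not independent, so these values cannot decide whether equal numbers are pairs. The main fit did not take them as pairs, and the replicate block was run as an alternative.

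With 3 libraries per group, ELOVL4 and ELOVL7, at 20 to 84 counts, had the widest intervals of the family.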
